A study of Mus musculus with 2 samples.

Results

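Macrophages of the mouse embryonic heart were taken from single-cell RNA libraries, and the cells were chosen by their own RNA, as those with transcripts of a fixed set of macrophage genes. A barcode was kept with at least 3000 UMIs (unique molecular identifiers, each standing for a captured RNA molecule), at least 500 genes, at most 20% of UMIs from mitochondrial genes, under 20% from hemoglobin genes and under 8 Ttn UMIs per 10000. Among the kept cells a macrophage had at least 4 of Csf1r, C1qa, C1qb, C1qc, Fcer1g, Tyrobp, Mrc1 and Cx3cr1 and a sum of these 8 genes of at least 5 UMIs per 10000. This gave 59 macrophages in the knockout library and 258 in the wildtype library, 317 of 8751 kept cells. Of the 59, 20 carried granule transcripts of immature myeloid cells and few of the genes of resident macrophages, as described below, so the name macrophage may not hold for them and stands for the rule alone.

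The hearts were collected at E10.5, in mid-gestation. The knockout library came from BubR1fl/fl embryos with 1 copy of Nkx2.5-cre, and the wildtype library from BubR1+/+ embryos with 1 copy of the same Cre, so both groups carry Nkx2.5-cre. Each library was made from 4 pooled hearts, and there is 1 library per genotype. BubR1, the product of Bub1b, is a spindle assembly checkpoint protein, and Nkx2.5-cre acts in cardiac progenitors and their descendants. No difference could therefore be tested against replicates, and genotype cannot be told apart from the pool of hearts. Values in square brackets are 95% intervals for counting error alone. Levels are in CPM, in which a gene's UMIs are scaled by all UMIs of the class of cells, and ratios are log2 ratios of CPM, knockout over wildtype.

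Macrophages are the phagocytes of the tissues. In the early mouse embryo they arise from yolk sac progenitors, enter the heart with the first blood vessels, clear dying cells and take part in shaping vessels and valves. Signalling through the receptor Csf1r keeps them alive, the transcription factor PU.1 (encoded by Spi1) directs their identity, and C1q, the first component of the complement cascade, is made from the products of C1qa, C1qb and C1qc.

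The promoter sequences of 3 macrophage genes and of Prtn3, a granule protease gene of immature myeloid cells, are shown because the comparison turns on these genes. They are from RefSeq (build GRCm38.p6), end before the first annotated exon and run 5′ to 3′ on the strand of the gene. Capitals mark AGGAAG on either strand (CTTCCT is its reverse complement), the core that PU.1 and other Ets factors share. C1qb lies on chromosome 4 (chr4:136886201-136886450, minus strand), Mrc1 on chromosome 2 (chr2:14229164-14229391, plus strand), Trem2 on chromosome 17 (chr17:48346151-48346400, plus strand) and Prtn3 on chromosome 10 (chr10:79879417-79879613, plus strand).
C1qb: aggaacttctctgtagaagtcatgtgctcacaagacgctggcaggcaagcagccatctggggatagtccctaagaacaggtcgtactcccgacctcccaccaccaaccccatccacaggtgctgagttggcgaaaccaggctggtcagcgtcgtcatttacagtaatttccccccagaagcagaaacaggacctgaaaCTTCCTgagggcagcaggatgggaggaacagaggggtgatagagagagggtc
Mrc1: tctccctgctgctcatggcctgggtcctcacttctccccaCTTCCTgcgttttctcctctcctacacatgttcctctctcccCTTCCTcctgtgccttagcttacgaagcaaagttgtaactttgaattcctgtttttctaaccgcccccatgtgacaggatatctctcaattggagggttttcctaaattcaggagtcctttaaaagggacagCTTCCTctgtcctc
Trem2: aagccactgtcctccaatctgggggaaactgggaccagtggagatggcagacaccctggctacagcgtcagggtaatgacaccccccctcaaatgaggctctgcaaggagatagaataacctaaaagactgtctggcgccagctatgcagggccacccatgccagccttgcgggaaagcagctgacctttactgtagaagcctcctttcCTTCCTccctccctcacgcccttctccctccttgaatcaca
Prtn3: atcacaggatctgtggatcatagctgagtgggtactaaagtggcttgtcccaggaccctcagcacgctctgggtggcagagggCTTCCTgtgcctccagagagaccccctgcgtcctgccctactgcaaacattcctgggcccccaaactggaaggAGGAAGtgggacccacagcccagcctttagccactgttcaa

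The core stood in these windows 1 time for C1qb, 3 times for Mrc1, 1 time for Trem2 and 2 times for Prtn3. Among the 28 genes that define or lead the macrophages below (the 8 rule genes and 20 named ones), 20 had a promoter in the RefSeq table, and 11 of these had AGGAAG within 250 bases upstream of the start. Counted by promoter, 12 of the 22 promoters of these genes held it (54.5%), against 29.5% of all 32851 promoters. The longer form GAGGAAGT, searched on both strands and containing the core, stood in 2.44% of all promoters and in 2 of these 22 (9.09%). A match is a description of letters and not a site of binding.

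Macrophages made up 1.42% of kept cells in the knockout library [1.08, 1.83] and 5.62% in the wildtype library [4.97, 6.33], with Clopper-Pearson intervals. Of all barcodes that passed the depth and mitochondrial limits, cardiomyocytes and erythroid barcodes included, they were 0.989% of 5966 in the knockout library and 3.47% of 7440 in the wildtype library. No macrophage barcode was shared between the libraries, and 3 barcodes of all kept cells were. Recovery of a cell type from a digested heart can differ between libraries, so a share of captured cells is not a number of cells per heart.

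The knockout macrophages were read more deeply. Their median was 23580 UMIs and 5334 genes, against 8936.5 UMIs and 3317.5 genes in wildtype macrophages. Over all macrophages of a library this came to 1455262 UMIs in the knockout and 2715062 in the wildtype, out of library totals of 130039314 UMIs in the knockout and 122834180 in the wildtype. The other kept cells had medians of 15390 UMIs in the knockout and 8104 in the wildtype. Hemoglobin was a median of 0.109% of the UMIs of a knockout macrophage and 0.312% of a wildtype macrophage, and if all of it came from free RNA, free RNA would be 1.84% of the median knockout macrophage and 2.82% of the median wildtype macrophage. For the summed UMIs, from which the levels are taken, the same upper limit was 9.07% in the knockout and 12.6% in the wildtype. The hemoglobin genes of the free RNA differed between the libraries. Hbb-bs stood at 210 CPM of free RNA in the knockout and 22711 CPM in the wildtype, and Hbb-bh1 at 5384 and 278 CPM. Hbb-y was closer, at 27884 and 36297 CPM in the same order. Whether the pools of hearts were alike in stage within E10.5 was not tested. The 4 Y-linked genes Uty, Ddx3y, Eif2s3y and Kdm5d had 0 UMIs in knockout macrophages and 407 in wildtype macrophages, and 21 and 5392 UMIs in the other kept cells of the knockout and the wildtype, while Xist stood at 626 CPM in knockout macrophages and 466 CPM in wildtype macrophages. The sex of the pooled embryos and their genotype therefore cannot be told apart.

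Bub1b, the gene that carries the floxed allele (mm10, chr2:118598211-118641591), was lower in knockout macrophages. It had 74 UMIs in the knockout and 229 in the wildtype, 50.9 CPM and 84.3 CPM in the same order, a log2 ratio of -0.73 [-1.13, -0.35]. In the other kept cells it stood at 45.0 CPM in the knockout and 36.7 CPM in the wildtype (0.30). The part of the gene that the Cre removes is not given in the labels, so these counts near the end of the transcript do not check the deletion. Its partners at the kinetochore had intervals that hold 0: Bub1 stood at 0.08 [-0.32, 0.46], Bub3 at 0.05 [-0.24, 0.34], Mad2l1 at 0.15 [-0.37, 0.66] and Ttk, the kinase Mps1, at -0.10 [-0.68, 0.46].

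The rule genes that chose the cells were themselves lower per cell in the knockout library, and these values are a description. Their sum had a median of 45.9 UMIs per 10000 in knockout macrophages, with a range of 10.1 to 112, and 121.5 in wildtype macrophages, with a range of 5.91 to 252. The sum was 100 or more in 4 of 59 knockout macrophages and in 180 of 258 wildtype macrophages. All 8 genes were detected in 29 knockout macrophages and in 199 wildtype macrophages, although the knockout cells were deeper. The sums of the knockout cells lay in the lower part of the wildtype range, and the ranges overlapped.

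**Figure D1:**
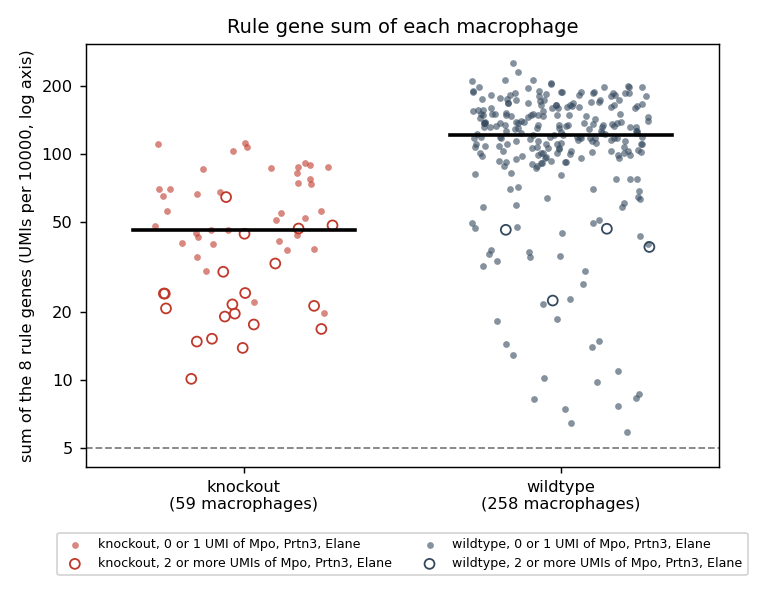
Sum of the 8 rule genes in each macrophage (UMIs per 10000, log axis) in the knockout library (left, 59 cells) and the wildtype library (right, 258 cells); black bars are medians, the dashed line is the threshold of 5, and open circles are cells with at least 2 UMIs of Mpo, Prtn3 or Elane. The medians stand at 45.9 in the knockout and 121.5 in the wildtype, and most open circles are low knockout cells.

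Exactly 4 rule genes were detected in 10 knockout and 14 wildtype macrophages, and the sum was under 20 per 10000 in 9 knockout and 16 wildtype macrophages. The wildtype cell with the lowest sum was also the deepest, with 101497 UMIs, of which 16.8% were hemoglobin. The lowest macrophages had sums of 10.1, 13.9 and 14.8 per 10000 in the knockout and 5.91, 6.46 and 7.45 in the wildtype. Just outside the threshold, 1 knockout cell with at least 4 of the genes had a sum of 3.66, and 3 wildtype cells had sums of 4.53, 3.22 and 2.49. A further 5 knockout and 17 wildtype cells had a sum past 5 but only 3 of the genes.

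Among the rule genes, the adaptor gene Tyrobp had the log2 ratio nearest to 0 and the mannose receptor gene Mrc1 the one furthest from it. Tyrobp, an adaptor that carries signals from receptors such as Trem2, stood at 880.3 CPM in knockout macrophages (1281 UMIs) and 1378 CPM in wildtype macrophages (3742 UMIs), a log2 ratio of -0.65 [-0.74, -0.55]. Fcer1g, the common chain of Fc receptors, had a log2 ratio of -0.97 and the chemokine receptor gene Cx3cr1 of -0.88. Csf1r, the receptor for the survival factor of macrophages, stood at 285 CPM in the knockout and 749.5 CPM in the wildtype (-1.39 [-1.55, -1.24]). Of the C1q genes, C1qa had 370.4 CPM in the knockout and 1404 CPM in the wildtype, C1qb 902 and 1888 CPM, and C1qc 502 and 1386 CPM, in the same order of groups. Mrc1, the mannose receptor that takes up glycoproteins, had 251 CPM in the knockout (365 UMIs) and 1470.3 CPM in the wildtype (3992 UMIs), a log2 ratio of -2.55 [-2.71, -2.40].

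Both libraries carried a broad macrophage profile beyond the genes of the rule. Of 10739 genes with at least 20 UMIs in macrophages, 405 (3.77%) were at least 10-fold higher in macrophages than in the other kept cells of both libraries. The 20 with the highest ratio in the lower library were Adgre1, Fcrls, Trem2, Msr1, Cd86, Fcgr1, C3ar1, Aif1, Ctss, Tnfrsf11a, Bank1, Ly86, Cd180, Ptprc, Ncf1, Cybb, Cd52, Apobec1, Spi1 and Ctsc. They include surface receptors of macrophages (Adgre1, which encodes F4/80, the scavenger receptor Msr1, the Fc receptor Fcgr1 and the complement receptor C3ar1), the lysosomal proteases cathepsin S (Ctss) and cathepsin C (Ctsc), and 2 subunits of the NADPH oxidase that makes superoxide (Cybb and Ncf1). Adgre1 stood at 166 CPM in knockout macrophages and 463 CPM in wildtype macrophages, against 0.0860 CPM and 0.279 CPM in the other kept cells of the knockout and the wildtype. Spi1 had 289 CPM in knockout macrophages and 339.6 CPM in wildtype macrophages, against 2.31 and 1.72 CPM in the other kept cells.

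Lymphoid markers were at or near 0, and so were 4 of the 6 dendritic cell genes. Of the lymphoid list, Cd3e, Cd3d, Nkg7 and Ncr1 had 0 UMIs in both libraries. The dendritic cell genes Flt3, Xcr1, Clec9a and Cd209a had 5, 1, 1 and 0 UMIs in knockout macrophages and 4, 0, 1 and 1 UMIs in wildtype macrophages. The other 2 genes of this list had at least 20 UMIs each. All 6 together summed to 35.7 CPM in the knockout and 35.0 CPM in the wildtype. Neutrophil markers summed to 204 CPM in knockout and 28.4 CPM in wildtype macrophages, and blood progenitor markers to 258 CPM in the knockout and 148 CPM in the wildtype. Megakaryocyte markers summed to 225 CPM in the knockout and 199 CPM in the wildtype, and erythroid markers to 5402 CPM in the knockout and 13950.0 CPM in the wildtype. Markers of heart tissue or of other blood lineages were present together in some cells. A cell with at least 3 markers of another class and a sum of at least 5 per 10000 was found 17 times among 59 knockout macrophages and 67 times among 258 wildtype macrophages. In the knockout, 8 of these had epicardial, 7 cardiomyocyte, 5 mesenchymal and 5 blood progenitor markers, 1 megakaryocyte and 1 neutrophil markers, and none endothelial markers. In the wildtype, 4 had epicardial, 42 cardiomyocyte, 26 mesenchymal, 13 endothelial and 2 blood progenitor markers, 1 megakaryocyte and 1 neutrophil markers. Scrublet, a method that scores barcodes holding 2 cells, put 11 knockout and 21 wildtype macrophages among its highest scores. These cells were kept, and results that depend on them are named below.

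Across all genes tested in macrophages, 4.80% (515 of 10739) were at least 2-fold higher in the knockout and 12% (1284) at least 2-fold lower. The same genes were at least 2-fold higher in 2.39% of cases and at least 2-fold lower in 6.43% in the other kept cells. The median gene had a log2 ratio of -0.10 in macrophages and -0.06 in the other kept cells. With ratios centred on the median gene, 690 genes were at least 2-fold higher and 1092 at least 2-fold lower. Counts of genes past 2-fold describe these libraries and are no test.

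Genes of resident macrophages of embryonic tissues were lower in the knockout library. Of the 16 genes of this list, 12 had at least 20 UMIs, and 9 of the 12 were at least 2-fold lower and none at least 2-fold higher, against 12% and 4.80% of all genes. Their median log2 ratio was -2.24 in macrophages and -1.12 in the other kept cells. Ms4a7, a membrane protein gene used to tell macrophages of the brain borders and other tissues from microglia, had 8 UMIs in 6 of 59 knockout macrophages and 627 UMIs in 159 of 258 wildtype macrophages. That is 5.50 CPM [2.37, 10.8] in the knockout and 231 CPM [213, 249.7] in the wildtype, a log2 ratio of -5.39 [-6.61, -4.41].

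The hyaluronan receptor Lyve1, which marks a subset of tissue macrophages as well as lymphatic and some endocardial cells, had 34 UMIs in 7 knockout macrophages and 698 UMIs in 92 wildtype macrophages (-3.46 [-4.00, -2.96]). One knockout cell held 22 of the 34 UMIs, and without the cells of the highest Scrublet scores 12 UMIs in the knockout and 614 in the wildtype gave -4.53. The folate receptor gene Folr2 had a log2 ratio of -2.31, the scavenger receptor gene Stab1 also -2.31, Ms4a6c -2.17, and the growth factor gene Igf1 -1.95. Gas6, which bridges dying cells to the receptors Mertk and Axl, stood at 32.3 CPM in the knockout and 224 CPM in the wildtype (-2.79). F13a1 (-0.77), which encodes a coagulation factor subunit, and the endocytic adaptor gene Dab2 (-0.78) differed less. Timd4, a receptor for phosphatidylserine on dying cells, was the member that did not stand lower: it had 28.9 CPM in the knockout (42 UMIs in 10 cells) and 20.3 CPM in the wildtype (55 UMIs in 29 cells), a log2 ratio of 0.51 [-0.10, 1.12] whose interval holds 0.

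The chemokine gene Pf4 is expressed by megakaryocytes too, which limits what it says of macrophages. It stood at 115 CPM in knockout macrophages and 930.0 CPM in wildtype macrophages (-3.02 [-3.25, -2.79]), while in the other kept cells it had a log2 ratio of 3.21. Of the members with fewer than 20 UMIs, Cd163 had 0 and 5 UMIs, Cbr2 1 and 9, and Cd209f and Cd209g none in either library.

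**Figure D2:**
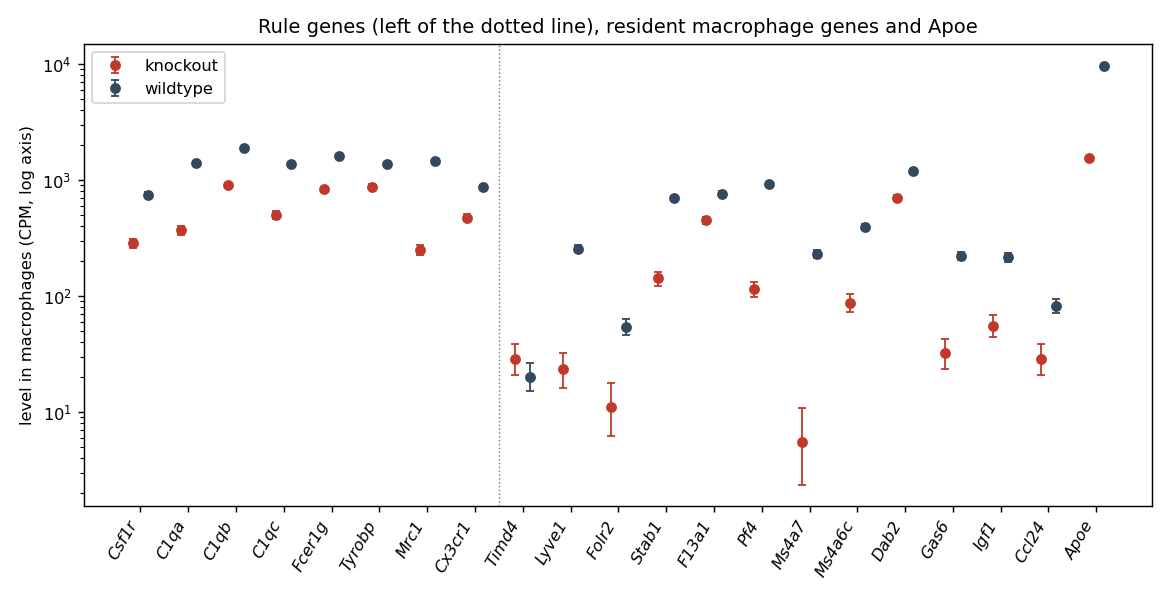
Levels in macrophages (CPM, log axis) of the 8 rule genes, left of the dotted line, and of the 12 resident macrophage genes with at least 20 UMIs and Apoe, with the knockout left of the wildtype for each gene; bars are 95% Poisson intervals. Every gene shown except Timd4 is lower in the knockout, and Ms4a7 stands at 5.50 CPM in the knockout and 231 CPM in the wildtype.

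Genes used to mark microglia, the macrophages of the brain that share the yolk sac origin, were lower in the knockout as well. Of 12 genes, 10 had at least 20 UMIs, and all 10 were at least 2-fold lower, against 12% of all genes, with a median log2 ratio of -1.95 and of -1.33 in the other kept cells. The Fc receptor-like gene Fcrls had 103 CPM in the knockout and 568 CPM in the wildtype (-2.46), and the purinergic receptor gene P2ry12, which senses nucleotides from damaged cells, had 77.0 and 172 CPM in the knockout and the wildtype (-1.16). The lipid receptor gene Trem2 had a log2 ratio of -1.15 and Gpr34 of -2.14. Crybb1, a crystallin gene expressed in young microglia, had 5 UMIs in 2 knockout cells and 158 UMIs in 65 wildtype cells. Sall1, a transcription factor gene of microglia, had 0 UMIs in the knockout and 8 in the wildtype. Genes used to mark Kupffer cells, the macrophages of the liver, were not lower as a list. Of 10 genes, 5 had at least 20 UMIs. Of the 5, 2 were at least 2-fold higher and none at least 2-fold lower, against 4.80% and 12% of all genes. Their median was 0.51, with bounds of -0.23 and 4.36 that hold 0, and -0.41 in the other kept cells. The median is the ratio of Timd4, whose own interval holds 0. The upper bound is the ratio of Spic, whose knockout UMIs were all in 1 cell, so the list says little.

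Because the knockout cells were deeper, each macrophage was also thinned to 3000 UMIs before cells with a UMI were counted. Ms4a7 was then found in 1.69% of knockout macrophages [0.0429, 9.09] and in 41.1% of wildtype macrophages [35.0, 47.4], and without thinning in 10.2% and 61.6%. Lyve1 was found in 3.39% of thinned knockout macrophages and 26.4% of thinned wildtype macrophages, and Mrc1 in 32.2% and 74.0%. Tyrobp was at 91.5% in the knockout and 93.8% in the wildtype, and as Tyrobp and Mrc1 are rule genes, their shares are in part fixed by the choice of cells. Endothelial cells thinned in the same way, with medians of 11842 UMIs in the knockout and 7771 in the wildtype, had a Ms4a7 UMI in 0 of 919 knockout cells (allowing up to 0.326%, 3 cells) and 0 of 1401 wildtype cells (up to 0.214%). Lyve1, which endocardial cells can express, was at 2.18% in thinned knockout endothelial cells and 2.14% in wildtype ones, within the interval of the knockout macrophages [0.413, 11.7], and Mrc1 was at 0.762% and 2.14%. The endothelial share for Tyrobp was 0.109% in the knockout and 0.428% in the wildtype.

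**Figure D3:**
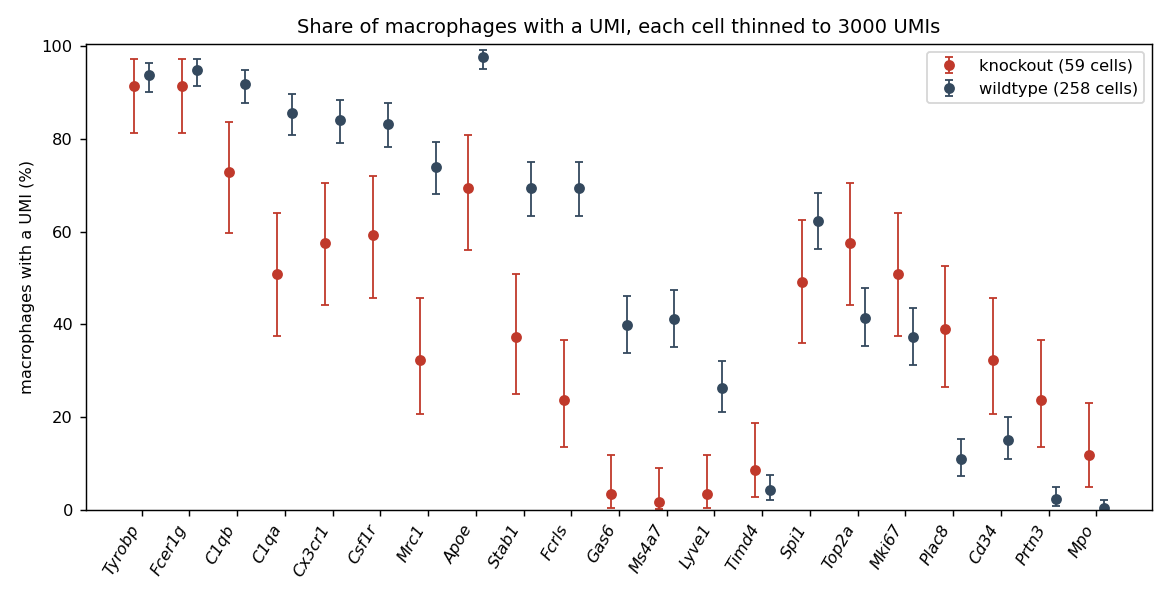
Share of macrophages with at least 1 UMI of each gene (%) after each cell was thinned to 3000 UMIs, in the knockout (59 cells, left of each pair) and the wildtype (258 cells); bars are 95% Clopper-Pearson intervals. Tyrobp and Fcer1g are above 90% in both libraries, Ms4a7 is at 1.69% in the knockout and 41.1% in the wildtype, and Plac8, Cd34, Prtn3 and Mpo are higher in the knockout.

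Of 21 transcription factor genes with at least 20 UMIs, 2 were at least 2-fold higher and 2 at least 2-fold lower, or 9.52% in each direction against 4.80% and 12% of all genes, with a median log2 ratio of -0.17. Spi1 had a log2 ratio of -0.23 [-0.40, -0.07], Irf8, a regulator of monocytes and microglia, of 0.09 [-0.14, 0.32] and Cebpb of 0.44 [0.27, 0.61]. Mitf (-1.73), a factor of lysosomal genes, and Bhlhe41 (-1.20) were the members at least 2-fold lower. Of those higher, Nr1h3, the sterol sensor LXR alpha, had 30 UMIs in the knockout and 22 in the wildtype, and Spic, a factor of iron-recycling macrophages, had 33 UMIs, all in 1 knockout cell, and 3 UMIs in 2 wildtype cells.

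Of 24 macrophage identity genes outside the rule, 9 were at least 2-fold lower and none at least 2-fold higher, against 12% and 4.80% of all genes. The median was -0.80 in macrophages and -0.37 in the other kept cells, and in macrophages it was -0.46 without cells with a UMI of the granule genes Mpo, Prtn3 or Elane (below, without granule UMIs) and -0.36 at a rule gene sum of 40 to 120. Ctss (-1.73), Lyz2 (-1.55), Adgre1 (-1.48) and Aif1 (-1.38) were among the lower ones. Pan-leukocyte genes were closer: Ptprc, which encodes CD45, had a log2 ratio of -0.44 and Cd52 of 0.27 [0.15, 0.40]. Lyz2 stood at 279.7 CPM in the knockout (407 UMIs in 54 cells) and 817 CPM in the wildtype (2218 UMIs in 207 cells).

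Genes of uptake and digestion lay mostly below 0. Of 16 genes for the uptake of apoptotic cells, 4 were at least 2-fold lower (Gas6, Cd36, Stab1 and Axl), against 12% of all genes. Their median was -0.59. Mertk, the receptor kinase that triggers engulfment, had 117 CPM in the knockout and 213 CPM in the wildtype (-0.86), while Rac2, a GTPase of the actin machinery, had a log2 ratio of 0.24. Of 28 lysosome genes, 8 were at least 2-fold lower and 1 at least 2-fold higher, against 12% and 4.80% of all genes. Their median was -0.75 in macrophages and -0.42 in the other kept cells. Cathepsin H (Ctsh, -2.35), progranulin (Grn, -1.78) and cathepsin D (Ctsd, -1.49) were among the lowest, and the proton pump subunit Atp6v1a stood at 0.17. The gene at least 2-fold higher, Atp6v0d2, had 14 UMIs in the knockout and 7 in the wildtype.

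Lipid genes went in both directions. Apoe, the carrier of lipids that macrophages secrete, stood at 1563 CPM in the knockout [1499, 1628] and 9718 CPM in the wildtype [9601, 9836], a log2 ratio of -2.64 [-2.70, -2.57], and the cholesterol exporter Abca1 at 123.0 and 509 CPM in the knockout and the wildtype (-2.05). Lipoprotein lipase (Lpl) was the opposite, with 342 CPM in the knockout and 160.2 CPM in the wildtype (1.09 [0.91, 1.28]), and the fatty acid binding protein gene Fabp5 had 574 and 357 CPM in the knockout and the wildtype (0.69). In the other kept cells Apoe had a log2 ratio of -1.16 and Lpl of 0.82. Of the 15 genes, 6 were at least 2-fold lower and 2 (Lpl and Nr1h3) at least 2-fold higher, against 12% and 4.80% of all genes.

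Most iron genes lay within 2-fold. The ferritin genes Fth1 (-0.05) and Ftl1 (-0.20), which store iron, and the iron exporter Slc40a1 (-0.23) were near 0, and Hmox1, which breaks down heme, was at 0.52 [0.35, 0.68]. Biliverdin reductase B (Blvrb, -1.50), Blvra (-1.03) and transferrin (Trf, -1.98) were at least 2-fold lower. Of 14 genes in all, these 3 were lower past 2-fold and Spic, from the single cell above, higher, against 12% and 4.80% of all genes.

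Of 16 pattern receptor genes, whose products sense microbes and damage, 10 were at least 2-fold lower and none at least 2-fold higher, against 12% and 4.80% of all genes. The median was -1.16 in macrophages and -0.72 in the other kept cells, and in macrophages it was -0.61 without granule UMIs and -0.77 at a rule gene sum of 40 to 120. The RNA sensor Tlr7 had 31 UMIs in the knockout and 178 in the wildtype (-1.62), Tlr2 had a log2 ratio of -1.17, Tlr4 of -0.70 and Clec4n of -3.47. The adaptor Myd88 stood at -0.06 [-0.64, 0.50].

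Of 16 chemokine and cytokine genes, 8 were at least 2-fold lower and 1 at least 2-fold higher, against 12% and 4.80% of all genes. Their median was -1.06 over all macrophages. That median was -0.05 at a rule gene sum of 40 to 120 and -0.61 among genes with at least 100 UMIs. Ccl12, a monocyte attractant, had 6 UMIs in 4 knockout cells and 194 UMIs in 72 wildtype cells (-4.12), and Cxcl16 had 1 UMI in the knockout and 125 in the wildtype, a log2 ratio of -6.07 [-11.38, -3.56]. Ccl2 (0.03), Ccl3 (0.21) and Ccl9 (-0.21) had intervals that hold 0. The member higher past 2-fold was Tnf, with 16 UMIs in the knockout and 9 in the wildtype.

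Most genes of Fc receptor signalling and of adhesion were within 2-fold, and 4 of 9 complement genes were at least 2-fold lower, against 12% of all genes. The median of the complement genes was -0.56 over all macrophages and 0.09 without granule UMIs. Of 21 genes of Fc receptor and ITAM signalling, 4 were at least 2-fold lower and none at least 2-fold higher, against 12% and 4.80% of all genes. Their median was -0.49. The inhibitory Fc receptor gene Fcgr2b had 1 UMI in the knockout and 35 UMIs in 29 wildtype cells, and the kinase gene Syk, which relays these receptors, stood at -0.56. Of 9 complement genes outside the rule, 4 were at least 2-fold lower, among them the receptor gene C3ar1, with 136 CPM in the knockout and 280.3 CPM in the wildtype (-1.04 [-1.28, -0.82]). Of 18 adhesion and migration genes, 3 (16.7%) were at least 2-fold lower, near the 12% of all genes. Among these 3 were the chemokine receptor gene Ccr1 (-1.33) and the integrin gene Itgb5 (-1.27), while Itgam, which encodes CD11b, stood at 0.38.

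Of 17 growth factor and protease genes, 7 were at least 2-fold lower and 2 at least 2-fold higher, against 12% and 4.80% of all genes. Their median was -0.77. Bmp2, a signal in valve formation, had 13 UMIs in 9 knockout cells and 103 UMIs in 57 wildtype cells (-2.09), and Nrp1, a receptor for vessel growth and guidance factors, stood at 150.5 CPM in the knockout and 376 CPM in the wildtype (-1.32). The members higher past 2-fold were Vegfa and Gpnmb, and 1 knockout cell held 42 of the 52 Gpnmb UMIs. Immediate early genes, which respond within minutes to stress or handling, had a median of -0.20 over 15 genes, with Fos at -0.71 and Jun at -0.16. The shock protein genes Hspa1a and Hspa1b were high in few knockout cells, 1 of which held 45 of the 47 Hspa1a UMIs.

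Interferon-induced genes, which act in antiviral defence, were lower in macrophages and also in the other kept cells. Of 22 such genes, 15 were at least 2-fold lower in macrophages and none at least 2-fold higher, against 12% and 4.80% of all genes. Their median there was -1.50. In the other kept cells 16 were at least 2-fold lower, against 6.43% of all genes, with a median of -1.88. Isg15, a ubiquitin-like protein, had 7 UMIs in the knockout and 183 in the wildtype (-3.81), and the RNA sensor gene Ddx58 had 9 and 97 UMIs in the knockout and the wildtype (-2.53). Rsad2 had 0 UMIs in the knockout and 34 in the wildtype, which makes it at least 6.07-fold lower when the knockout is set to a floor of 3 UMIs. Bst2, which tethers viruses to the cell, stood at -0.92 in macrophages and -1.91 in the other kept cells, and the membrane protein gene Ifitm3 at -0.50 and -2.45. All 10 genes of MHC class I presentation with at least 20 UMIs were below 0, 4 of them at least 2-fold lower, against 12% of all genes. Their median was -0.94 in macrophages and -0.97 in the other kept cells.

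Glycolytic and hypoxia-induced genes were higher in the knockout. Of 20 genes, 12 were at least 2-fold higher and none at least 2-fold lower, against 4.80% and 12% of all genes, with a median of 1.11 in macrophages and 0.61 in the other kept cells. Lactate dehydrogenase A (Ldha) stood at 1064 CPM in the knockout and 464 CPM in the wildtype (1.20 [1.09, 1.30]), the glucose transporter gene Slc2a1 at 85.2 and 20.3 CPM in the knockout and the wildtype (2.07 [1.60, 2.56]), triosephosphate isomerase (Tpi1) at a log2 ratio of 1.23 and enolase (Eno1) at 1.26. Egln3, an oxygen-sensing hydroxylase gene, had 49 UMIs in 19 knockout cells and 13 UMIs in 11 wildtype cells (2.81), while in the other kept cells it stood at -0.20. Some members rested on few cells: of 32 UMIs of Ndrg1 in the knockout 23 were in 1 cell, against 2 UMIs in the wildtype, and of 20 UMIs of the vessel growth factor Vegfa 13 were in 1 cell, against 7 UMIs in the wildtype.

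**Figure D4:**
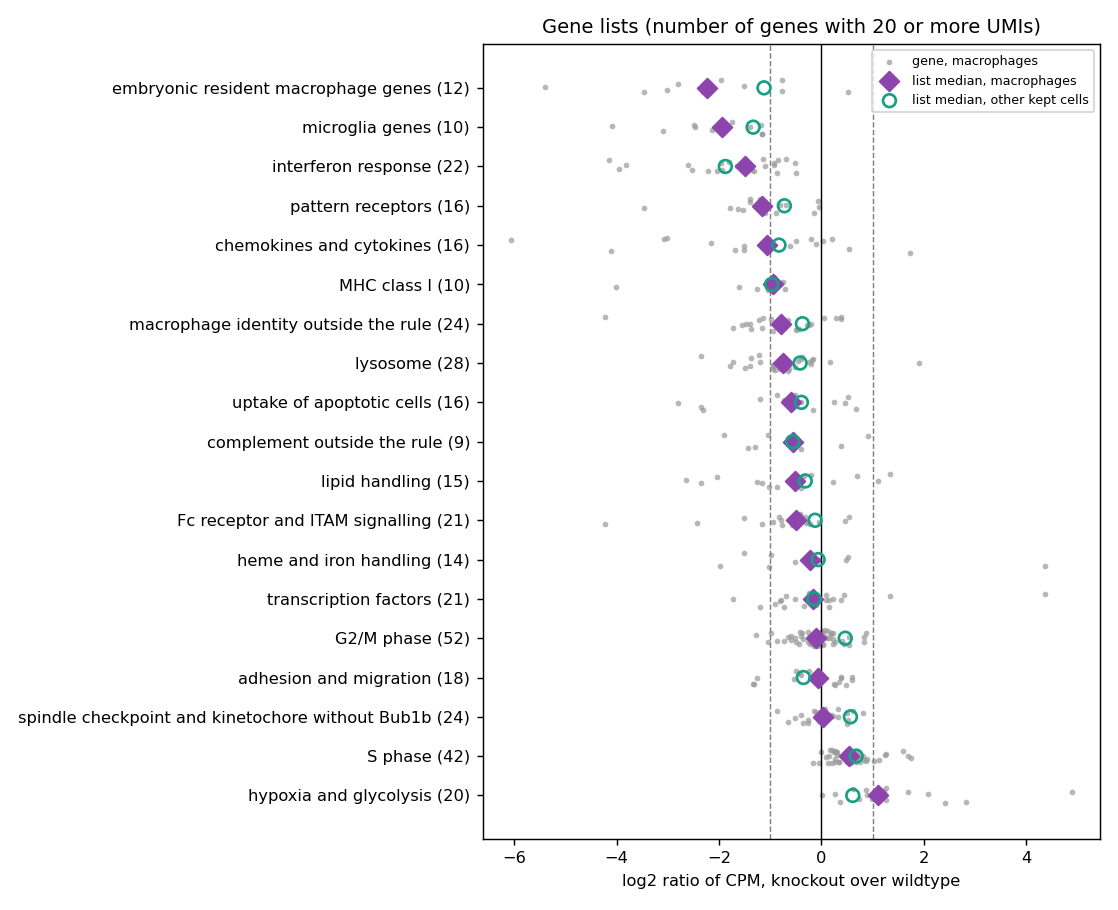
Log2 ratio of CPM, knockout over wildtype, for the genes of 19 lists with at least 20 UMIs in macrophages (grey points), with the median of each list in macrophages (diamonds) and in the other kept cells (open circles); a gene with 0 UMIs in the knockout is drawn at the floor of 3 UMIs, and dashed lines mark 2-fold. The resident list has its medians at -2.24 in macrophages and -1.12 in the other kept cells, and the hypoxia and glycolysis list at 1.11 and 0.61.

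Bub1b lay further below 0 among cells with a fuller macrophage profile, with intervals that overlap those of all macrophages. In cells with all 8 rule genes, 16 UMIs in 29 knockout macrophages and 180 UMIs in 199 wildtype macrophages gave 24.2 CPM and 86.1 CPM, a log2 ratio of -1.83 [-2.67, -1.09]. Bub1 stood at -0.63 [-1.27, -0.03] there, Ttk at -1.06 [-2.18, -0.09], and the proliferation gene Mki67 had 197 CPM in the knockout and 395 CPM in the wildtype, so other mitotic genes were lower in these cells too. Without cells that had a UMI of Mpo, Prtn3 or Elane, Bub1b was at -1.72, and among cells with a rule gene sum of 40 to 120 per 10000 it was at -1.79. These 3 choices of cells were made after the data were seen. Of the 24 genes of the spindle checkpoint and kinetochore without Bub1b, none was past 2-fold lower or higher, against 12% and 4.80% of all genes. Their median was 0.04 over all macrophages and 0.57 in the other kept cells. The median of this list was below 0 in the 3 chosen sets of cells, at -0.28 with all 8 rule genes, -0.26 without granule UMIs and -0.41 at a sum of 40 to 120.

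Dividing cells were common in both libraries. Top2a, a topoisomerase made in dividing cells, was found in 57.6% of thinned knockout macrophages [44.1, 70.4] and 41.5% of thinned wildtype macrophages [35.4, 47.7], and Mki67 in 50.8% and 37.2%, with overlapping intervals for both genes. Both genes mark any dividing cell, and thinned endothelial cells had Top2a in 39.7% of knockout and 23.4% of wildtype cells. By level the order was different: Mki67 stood at 268 CPM in the knockout and 359 CPM in the wildtype (-0.42 [-0.59, -0.25]), and Top2a at 459 and 509 CPM in the knockout and the wildtype (-0.15). The shares go against the levels, so no order is read from them. Of 42 S phase genes, 39 were above 0 and 7 at least 2-fold higher, against 4.80% of all genes. Their median was 0.53 in macrophages and 0.68 in the other kept cells. The helicase genes Mcm2 to Mcm7 lay between 0.52 and 0.89, and Uhrf1 and Hells at 1.24 and 1.27. Of 52 G2/M genes, 2 (Gas2l3 and Nek2) were at least 2-fold lower and none at least 2-fold higher, against 12% and 4.80% of all genes. Their median was -0.11 in macrophages and 0.46 in the other kept cells.

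Targets of p53 showed no common direction in macrophages. Of 22 genes, 3 were at least 2-fold higher (Tigar, Aen and Bbc3) and 3 at least 2-fold lower (Trp53inp1, Btg2 and Sesn1), against 4.80% and 12% of all genes. Their median was 0.21. Cdkn1a, the kinase inhibitor p21, had 31.6 CPM in the knockout and 37.2 CPM in the wildtype, a log2 ratio of -0.23 [-0.77, 0.28].

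The 2 genes highest in the knockout by ratio, Prtn3 and Mpo, encode granule proteins of immature myeloid cells. By the naming rule, which took genes with at least 100 UMIs and 50 CPM in the higher library, they were Prtn3 (3.32), Mpo (3.08), S100a6 (2.45), Klk8 (2.44), Tox (2.42), Gria3 (2.16), Slc2a1 (2.07), Pfas (2.05), Uck2 (1.99), Mthfd2 (1.96), Rgs18 (1.96) and Polr2l (1.95). Prtn3, proteinase 3, had 209 UMIs in 26 knockout cells and 39 UMIs in 14 wildtype cells. Mpo, myeloperoxidase, had 86 UMIs in 12 knockout cells, 26 of them in 1 cell, and 19 UMIs in 2 wildtype cells, 18 of them in 1 cell. Elane, neutrophil elastase, had 0 UMIs in the knockout and 1 in the wildtype, and S100a8, a gene of mature neutrophils, had 0 and 16. Pfas, Uck2 and Mthfd2 encode enzymes of nucleotide synthesis and folate metabolism. S100a6, a calcium-binding protein, had 285 UMIs in 36 knockout cells and 97 UMIs in 35 wildtype cells. Tox, a nuclear factor known from lymphocytes, rested on 8 knockout cells, 1 of which held 49.5% of its UMIs.

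Cells with granule transcripts were a larger share of the knockout macrophages. At least 2 UMIs of Mpo, Prtn3 or Elane together were found in 20 of 59 knockout macrophages, or 33.9% [22.1, 47.4], and in 4 of 258 wildtype macrophages, or 1.55% [0.424, 3.92]. After thinning, Prtn3 was found in 23.7% of knockout macrophages and 2.33% of wildtype macrophages, and Mpo in 11.9% and 0.388%. Thinned endothelial cells of both libraries had shares of 0% and 0.214% for Prtn3, and of 0.109% and 0% for Mpo, in the knockout and the wildtype, where a count of 0 allows up to 0.326% in the knockout and 0.214% in the wildtype. Plac8 was found in 39.0% of thinned knockout macrophages and 10.9% of thinned wildtype macrophages, against 0.762% and 0.428% of thinned endothelial cells. Cd34, also an endothelial gene, was found in 32.2% and 15.1% of thinned knockout and wildtype macrophages. In thinned endothelial cells it was found in 23.4% of the knockout and 31.0% of the wildtype. The 20 cells had a median of 28758 UMIs and the other 39 knockout macrophages 21172 UMIs.

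The 20 knockout cells with granule transcripts, described here and not tested, had little of the resident profile. Their rule gene sum had a median of 21.4 per 10000, against 56.2 in the other 39, and 3 of the 20 had all 8 rule genes, against 26 of the 39. Ms4a7, Lyve1 and Timd4 had no UMI in any of the 20, which allows up to 3 cells. In the other 39 they were detected in only 6, 7 and 10 cells, so their absence sets the 20 little apart. Plac8, a gene of immature myeloid cells and monocytes, was detected in all 20 and the progenitor gene Cd34 in 18, against 20 and 23 of the other 39. C1qa stood at 43.5 CPM in the 20 and 569.8 CPM in the 39, Apoe at 316 and 2323 CPM, and Plac8 at 635 and 165 CPM, while Spi1 stood at 323 and 268 CPM. The 4 wildtype cells of this kind likewise had no UMI of Ms4a7, Lyve1 or Timd4, had Plac8 in all 4, and had a median rule gene sum of 42.4 per 10000. The stem and progenitor receptor Kit had 0 UMIs in knockout macrophages and 10 in wildtype macrophages.

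The resident genes were lower in the knockout with these cells left out. Among cells with no UMI of Mpo, Prtn3 or Elane (32 knockout and 244 wildtype macrophages), the resident list had a median of -1.51 and the microglia list of -1.64, Ms4a7 had 7 UMIs in the knockout and 618 in the wildtype (-4.67), Lyve1 a log2 ratio of -2.55 and Apoe of -1.94. Plac8 changed direction with this choice, at 1.35 over all macrophages and -0.76 without these cells, and Tox did so at 2.42 and -0.53. Prtn3 and Mpo cannot be read there, since the choice removed them. It did not remove every cell with progenitor transcripts, so the 2 sets are not alike. Cd34 was detected in 16 of these 32 knockout cells and 57 of the 244 wildtype cells, and Plac8 in 13 and 28, without thinning. S100a6 stood at 3.30 and Lpl at 1.42. A rule gene sum of 40 to 120 per 10000 left 36 knockout and 97 wildtype macrophages. There the resident list had a median of -1.19, the microglia list of -1.22 and the interferon list of -0.95, and Ms4a7 stood at -4.99. The rule genes themselves still had a median of -0.46 there, so this choice did not match the libraries in these genes.

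Monocyte genes went in both directions. Of 7 genes with at least 20 UMIs, 2 were at least 2-fold higher (Plac8 at 1.35 and S100a4 at 1.28) and 3 at least 2-fold lower, against 4.80% and 12% of all genes. Ccr2, the chemokine receptor of monocytes, had 40 UMIs in 13 knockout cells and 215 UMIs in 34 wildtype cells (-1.53), and Cd74, the invariant chain of MHC class II, had 9 UMIs in 7 knockout cells and 75 UMIs in 25 wildtype cells (-2.16). Ly6c2 had 0 UMIs in the knockout and 13 in the wildtype.

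Some cells in both libraries had a UMI of both Lyve1 and Timd4. There were 7 such cells in the knockout (11.9% [4.91, 22.9]) and 15 in the wildtype (5.81% [3.29, 9.41]), with overlapping intervals. These shares are not thinned, and the knockout cells were deeper. Across thinned cells the 2 genes had a Spearman correlation of 0.28 in the knockout and -0.03 in the wildtype, so no common subset is read from them. None of the 7 knockout cells had a UMI of Plac8 or Cd34, and all 7 had all 8 rule genes, as had all 15 in the wildtype. All 7 knockout cells with a Lyve1 UMI also had Timd4, against 15 of 92 in the wildtype. Ms4a7 was detected in 1 of the 7 knockout cells and in 13 of the 15 wildtype cells.

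The 12 genes lowest in the knockout by the naming rule were Ms4a7 (-5.39), Ifi27l2a (-4.89), Postn (-4.61), Mgp (-4.60), Nppa (-4.52), Ccl12 (-4.12), Crybb1 (-4.08), Isg15 (-3.81), Lyve1 (-3.46), Agmo (-3.43), Ttn (-3.20) and Olfml3 (-3.09). Not all are macrophage genes. Postn and Mgp are genes of mesenchymal cells and Nppa and Ttn of cardiomyocytes, and the rule for macrophages set a limit on Ttn. Postn had 3 UMIs in the knockout and 137 in 30 wildtype cells, and Nppa had 4 UMIs in the knockout and 171 in 62 wildtype cells, of which 1 cell held 85. Without cells with markers of another class, Postn had 0 UMIs in the knockout and 10 in the wildtype, and Ms4a7 had 3 UMIs in the knockout and 518 in the wildtype. The summed level of the cardiomyocyte markers was 270.1 CPM in knockout macrophages, ranging over cells from 0 to 21.6 per 10000, and 489 CPM in wildtype macrophages, ranging from 0 to 59.2 per 10000. Their part in the level of the macrophage genes was not tested.

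Of the markers of the heart tissues, those of the epicardium were higher in the knockout, with 6 of 7 genes at least 2-fold higher, against 4.80% of all genes. Their median was 1.65 in macrophages and 0.96 in the other kept cells. Upk3b had 81 UMIs in 10 knockout cells and 42 UMIs in 9 wildtype cells, and Wt1 had 63 UMIs in 12 knockout cells and 45 UMIs in 15 wildtype cells. Without the cells of the highest Scrublet scores, Upk3b stood at -1.97, Wt1 at -2.25 and Tbx18 at -3.38, so their direction turned.

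Hemoglobin and the other genes left out of the naming by ratio aside, the macrophages varied most within each library, after thinning, in Fth1, Apoe, Tmsb4x, Malat1, Hmox1, Ftl1, Cdkn1c, Fabp5, Meg3, Ctla2a, Sparc and Lyz2, ranked by the variance over the mean in the lower of the libraries among 6134 genes. The hemoglobin gene Hbb-y had a higher index than any of these, 76.4 in the knockout and 145 in the wildtype. For Apoe this index was 16.8 in the knockout and 19.9 in the wildtype, and for Hmox1 13.5 and 8.80, against a median over genes of 0.966 in the knockout and 1.07 in the wildtype. Apoe was detected in 69.5% of thinned knockout macrophages and 97.7% of thinned wildtype macrophages, and Hmox1 in 33.9% and 27.5%. Thinned endothelial cells had an Apoe UMI in 81.5% of knockout and 86.6% of wildtype cells, so the share of the knockout macrophages is not above that of this other cell type, and a Hmox1 UMI in 5.01% and 4.93%. Across cells, C1qa and C1qb had a Spearman correlation of 0.66 in 59 knockout cells and 0.56 in 258 wildtype cells, Mrc1 and Stab1 of 0.52 and 0.64, Prtn3 and C1qa of -0.39 and -0.23, and Plac8 and Mrc1 of -0.41 and -0.43. Cells of a library share its preparation and differ in depth, so these values describe the cells and carry no test.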

How the data were processed

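The authors deposited raw UMI counts for every barcode, empty droplets included. Cell Ranger 7.1.0 and build mm10 are named per the submitters' processing notes and the file headers. No cell filter of the authors was used. Hearts stood on ice for 3 hours before digestion, per the labels' protocols.

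Counts were summed over the macrophages of a library and scaled to CPM. Ratios have conditional binomial, levels Poisson and shares Clopper-Pearson intervals, all exact and at 95%, for counting error only. Genes needed 20 UMIs over both libraries. A count of 0 was set to 3 UMIs per library in ratios. For shares, each cell was thinned to 3000 UMIs, and no macrophage fell under that. Doublets were scored with Scrublet (scanpy 1.11.5) at 0.8% per 1000 barcodes and kept. Free RNA was read from barcodes of 10 to 100 UMIs. The calculation of ratios was run on simulated counts with counting error alone, which does not check the intervals for variation between cells. Python 3.11.15, numpy 2.4.6, scipy 1.17.1 and pandas 2.3.3 were used.

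Single genes were named by fixed rules: the 20 with the highest ratio of macrophages to other kept cells in the lower library (at least 100 CPM in both, rule genes left out), the 12 highest and 12 lowest by ratio of knockout to wildtype (at least 100 UMIs and 50 CPM in the higher library, leaving out Xist, Tsix, unnamed models and the genes of the Y chromosome, hemoglobin, ribosomes and mitochondria), the rule genes, Bub1b and its partners, list members and the 12 most variable, with the same genes left out. Members and lists were chosen with earlier results of these data known. Another setting was tried for 12 choices fixed at the start and 3 added after seeing the data, and the closing section gives the effect.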

Additional observations from a re-analysis of the deposited data

How the results depend on the processing

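No paired analysis was possible because each genotype has 1 library, and for the same reason no replicate could be left out. The knockout share of macrophages stayed between 1.18% and 1.49% and the wildtype share between 5.16% and 5.86% with a minimum of 5000 UMIs, at least 5 of 8 markers, a mitochondrial limit of 10% or no highest Scrublet scores. Without cells with markers of another class 42 knockout and 191 wildtype macrophages were left, with all 8 rule genes 29 and 199, without a UMI of Mpo, Prtn3 or Elane (without granule UMIs) 32 and 244, and at a sum of 40 to 120 36 and 97. The count of genes at least 2-fold higher (515) fell to 261 among cells with a rule gene sum of 40 to 120 per 10000 and to 197 among genes with at least 100 UMIs, and that of genes at least 2-fold lower (1284) to 805 and 473. Fewer cells or genes enter there by construction. Bub1b (-0.73) stood at -1.83 with all 8 rule genes, -1.72 without a UMI of Mpo, Prtn3 or Elane and -1.79 at a sum of 40 to 120, which were added after the data were seen. Of 25 list medians, 21, 21 and 22 kept their sign in the last 3 of these sets, and of the 7 past 2-fold, 5, 4 and 2 stayed past it. The 25 and the 7 include the list of the 8 rule genes. The sets with all 8 rule genes and at a sum of 40 to 120 were chosen on these genes, so that list is no check there. Among medians that changed sign were heme and iron (-0.22, and 0.24 without granule UMIs), immediate early genes (-0.20, and 0.06, 0.08 and 0.07 in the 3 sets) and p53 targets (0.21, and -0.23 among genes with 100 UMIs). Directions turned for the monocyte list with all 8 rule genes (0.60) and, among genes at least 2-fold apart over all macrophages, for Mmp14 there (0.34), Plac8 without granule UMIs (-0.76) and at a sum of 40 to 120 (-0.34), Tox without granule UMIs (-0.53), Hba-a1 with free RNA subtracted (4.26), and Col1a2 (0.99) and Myl4 (0.22) without cells with markers of another class. Without the highest Scrublet scores they turned for Hba-x (-0.72), Tbx18 (-3.38), Upk3b (-1.97) and Wt1 (-2.25). The cause was not tested. The medians of the resident, microglia and interferon lists stayed below 0 under all 15 alternatives, at -2.31 to -1.19, -2.15 to -1.22 and -1.64 to -0.87. The median of the Kupffer cell list (0.51) stayed above 0 under each alternative that gave one, at 0.45 to 1.95. Cells thinned to 3000 UMIs and genes with at least 100 UMIs gave none. With 59 knockout cells, a count of 0 allows a share of up to 5.08%.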
